A study of Homo sapiens with 6 samples.

Results

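Transcript clusters for which the platform annotation gave no gene symbol were examined on expression arrays of HCT116, a widely used human colon cancer cell line, after siRNA directed at H19. A transcript cluster is the gene-level unit of the array, a set of probes summarised to a single log2 signal. Of 67528 transcript clusters in the table, 42204 had no symbol, and 12172 of these (28.8%) reached a log2 signal of at least 5 in 2 or more of the 6 arrays. Clusters with identical values on all 6 arrays were counted once, which set aside 638 clusters and left 11534, called symbol-less clusters here. Of 23781 clusters with exactly 1 symbol, 11715 (49.3%) passed the same filter. Counting identical values once left 11522 of these, the group that the symbol-less clusters are set against. A cluster without a symbol was unnamed in the annotation used here and may still overlap a known gene.

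The groups were siH19-1, siH19-2 and the control siRNA si(-), with 2 arrays each. All cells, controls included, had been transfected with siRNA at 50 nM with Lipofectamine RNAiMAX for 48 h, and total RNA was extracted with Trizol. Biotin-labelled cDNA was made with the WT PLUS kit. The labels call the arrays of a group biological replicates of this single cell line, and say nothing of separate culture days. The comparisons address whether the signal of clusters without a symbol differs when H19 is targeted, and whether it differs in the same way with both siRNAs.

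Much of the human genome is transcribed outside protein-coding genes, into long noncoding RNAs, antisense RNAs, transcripts of pseudogenes and small RNAs such as those that guide the modification of ribosomal RNA. Many long noncoding RNAs are present at low level and in few cell types. H19 itself is an imprinted long noncoding RNA, expressed from the maternal copy, and is the precursor of the microRNA miR-675. Labelling from random primers, as whole-transcript kits use, also reads RNA without a poly(A) tail.

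The cluster that the annotation pairs with H19 and MIR675 lay at 4.90 and 4.99 in the siH19-1 arrays, 4.95 and 5.02 in the siH19-2 arrays and 4.82 and 5.02 in the si(-) arrays. It lay at the filter and the groups overlapped, so directions below rest on the labels. In the limma fit it differed by 0.02 with siH19-1 (adjusted p = 0.938) and by 0.06 with siH19-2 (adjusted p = 0.738). Of 8 epithelial markers 7 passed the filter, with KRT8 at 13.80 and CDX2 under it at 3.86, and of 11 measured markers of blood, endothelial, fibroblast and liver cells only COL1A1 did, with a mean of 5.00. The summed log2 signal of the epithelial markers ranged over 75.23 to 75.79 with siH19-1, 77.50 to 77.77 with siH19-2 and 72.12 to 73.56 with si(-). CDH1 carried most of this, with 8.25 and 8.24 in siH19-1, 9.92 and 9.87 in siH19-2 and 6.62 and 7.0 in si(-) arrays. KRT8 and ELF3 were also higher in every siH19 array than in both si(-) arrays. ELF3 stood at 5.64 and 5.68 with siH19-1, 6.47 and 6.62 with siH19-2 and 5.55 and 5.54 with si(-). Other markers were not uniformly higher. EPCAM was at 11.09 and 11.10 with siH19-2, against 11.37 and 11.26 with si(-). CLDN4 was at 8.23 and 8.23 with siH19-1 and 8.52 and 8.63 with siH19-2, against 8.58 and 8.36 with si(-). The summed signal of the other markers ranged over 41.35 to 41.82, 41.38 to 41.50 and 40.18 to 40.32 in the same order, and the part of these differences in the results was not tested.

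The ID of each cluster carries its chromosome and a running number within it (the ending shared by all IDs is left out here). Of 22434 single-symbol clusters matched to a RefSeq gene, 99.7% lay on the chromosome that the ID gives. Among 13008 pairs of these with consecutive numbers, 97.9% followed the order of the RefSeq gene starts and 96.1% lay within 1 megabase. Neighbouring numbers of single-symbol clusters thus mostly stood for neighbouring places. Numbers far from any symbol could not be checked in this way. The symbols were unevenly spread along these numbers. Of the symbol-less clusters, 5353 (46.4%) lay more than 20 numbers from any cluster with a symbol, in stretches called symbol-free here, and 6106 lay among clusters with symbols. This split was chosen after the ID order had been seen. The remaining clusters were 12 of the mitochondrial genome, 52 of alternate haplotypes and 11 of unplaced contigs. No sequence or position of a symbol-less cluster was used here.

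Symbol-less clusters had lower signals and a wider replicate spread than clusters with a symbol. Their median log2 signal, over the mean of the 6 arrays, was 6.36 (quartiles 5.42 and 8.21), against 7.19 (5.94 and 8.88) for single-symbol clusters. Signals of different clusters also depend on their probes, so this describes the array and not RNA amounts. Under a mean of 6 lay 4860 symbol-less clusters, and 3128 (27.1%) had a mean of 8 or above, against 36.8% of single-symbol clusters. At the top of the scale the order turned, with 258 symbol-less clusters and 98 single-symbol clusters at a mean of 15 or above. The median SD between the arrays of a group was 0.18 for symbol-less and 0.106 for single-symbol clusters. It was 0.165 in the symbol-free stretches and 0.196 among clusters with symbols.

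**Figure D1:**
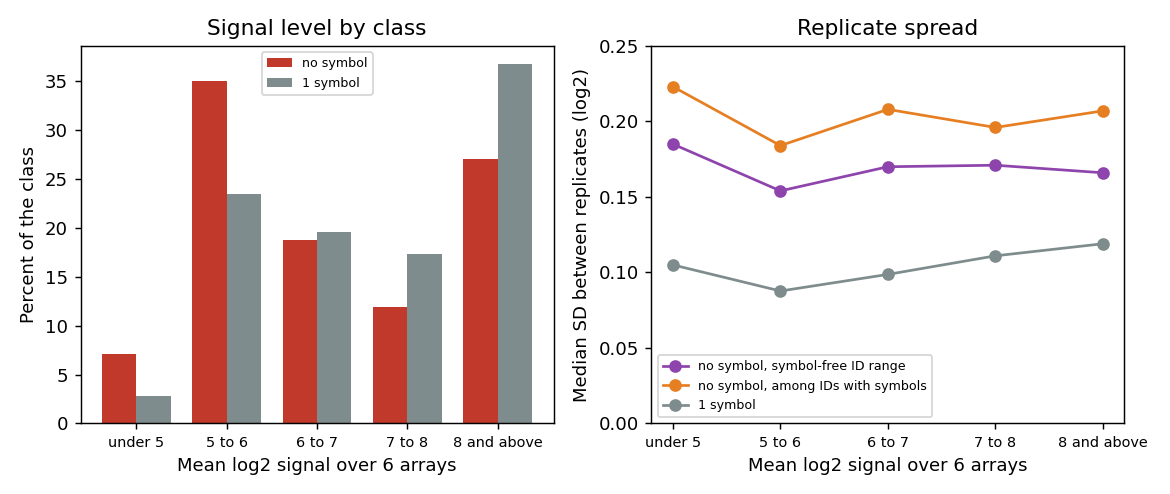
Left, bars give the percent of symbol-less and of single-symbol clusters in 5 bins of mean log2 signal over the 6 arrays. Right, points give the median SD between the 2 arrays of a group, in log2 units, for the same bins. The 5 to 6 bin holds 35.0% of the symbol-less and 23.5% of the single-symbol clusters, and in every bin both kinds of symbol-less cluster have a higher SD than single-symbol clusters.

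The wider spread was present in every bin of signal. At a mean of 8 or above the median SD was 0.166 in symbol-free stretches and 0.207 among clusters with symbols, against 0.119 for single-symbol clusters. Single-symbol clusters were not of 1 kind either when split by RefSeq gene class, a split made after values had been seen. The median SD was 0.0982 for 9749 protein-coding clusters and 0.135 for 355 long noncoding RNAs. It was 0.189 for 317 microRNA genes, 0.257 for 488 pseudogenes not classed as transcribed and 0.262 for 137 small nucleolar RNAs, so the symbol-less clusters lay among the noncoding classes.

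The filter admitted some clusters through a single group. Of the symbol-less clusters, 212 had arrays at 5 or above in 1 group only, against 152 single-symbol clusters. In all 6 arrays 9243 symbol-less clusters stood at 5 or above, and 565 did so in exactly 2. Just outside, 953 symbol-less clusters reached 5 in exactly 1 array and 29079 in none.

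With both siRNAs averaged, 939 of 11534 symbol-less clusters (8.14%) differed from si(-) in limma at an adjusted p under 0.05, 499 higher and 440 lower. Of all 24721 tested clusters 12.4% were called, 5.19% higher and 7.17% lower. Single-symbol clusters were called at 17.0%, with 699 higher and 1255 lower. The median log2 fold change was 0.057 over symbol-less and -0.035 over single-symbol clusters. Of the 939 calls 239 (25.5%) reached a fold of 2, against 306 of the 1954 single-symbol calls (15.7%). Of the whole classes these were 239 of 11534 and 306 of 11522, so the order depends on what is counted. The classes also differed in replicate spread, and no symbol-less cluster was called at a log2 change under 0.35. In 814 of the 939 all 4 siH19 arrays lay on the same side of both si(-) arrays, 430 above and 384 below. This was not counted over all tested clusters, so it is not read as a trait of symbol-less clusters. The call count fell to 248 without si(-) replicate 1, with 69.0% of calls higher, and was 577 without si(-) replicate 2, with 42.1% higher. It was 289 and 326 without siH19-1 replicate 1 and 2, and 327 and 419 without siH19-2 replicate 1 and 2.

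With siH19-1, 473 symbol-less clusters (4.10%) were called, 202 higher and 271 lower. The background over all tested clusters was 6.22%, with 2.65% higher and 3.56% lower, and single-symbol clusters stood at 8.70%. The medians were -0.005 over symbol-less and -0.035 over single-symbol clusters. Of the 473 calls 209 (44.2%) had a fold of at least 2, against 287 of 1002 single-symbol calls (28.6%). The smallest called change of a symbol-less cluster was 0.48. The symbol-less count was the least stable of the 4 comparisons. It was 94 without si(-) replicate 1, with 56 higher and 38 lower (59.6% higher), and 255 without si(-) replicate 2, with 37.3% higher, so the direction of the majority turned on a single control array. It was 200 without either siH19-2 array. Without siH19-1 replicate 1 limma called 0 symbol-less clusters, with 1589 at an unadjusted p under 0.05, and without siH19-1 replicate 2 it called 0, with 1445 at an unadjusted p under 0.05.

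With siH19-2, 1779 symbol-less clusters (15.4%) were called, 1125 higher and 654 lower. Of all tested clusters 21.0% were called, 10.2% higher and 10.8% lower, and of single-symbol clusters 26.5%, with 1196 higher and 1861 lower. The median was 0.11 over symbol-less and -0.035 over single-symbol clusters. A fold of at least 2 was reached by 555 of the 1779, against 741 of the 3057 single-symbol calls. The symbol-less fit was also repeated without each array in turn, with the counts summarised at the end. siH19-1 and siH19-2 share the si(-) arrays, so the results against si(-) are not independent of each other.

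Set directly against siH19-1, siH19-2 gave 1554 called symbol-less clusters (13.5%), 1062 higher and 492 lower. Of all tested clusters 18.2% were called, 9.76% higher and 8.42% lower, and of single-symbol clusters 22.5%, with 1148 higher and 1447 lower. The medians were 0.115 over symbol-less and -0.005 over single-symbol clusters. The count was 181 and 300 when siH19-1 replicate 2 or 1 was left out, and 217 and 464 when siH19-2 replicate 1 or 2 was left out.

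The share called was larger at high than at low signal, and unequally so in the 2 kinds of symbol-less cluster. With siH19-2, symbol-free stretches had 12.1% called under a mean of 5, 11.8% at 5 to 6, 15.2% at 6 to 7, 25.7% at 7 to 8 and 35.3% at 8 and above. Symbol-less clusters among clusters with symbols had 8.80%, 5.62%, 10.4%, 15.7% and 16.9% in these bins. Single-symbol clusters had 18.2%, 12.8%, 24.0%, 29.0% and 36.1%, and in all 3 sets the share was lowest at 5 to 6. A cluster with a mean under 5 was tested only if 2 or more arrays still reached 5. The filter thus picked clusters with unequal arrays in that bin, and its share cannot be read as an effect of dim signal. At 8 and above the symbol-free stretches thus stood beside the single-symbol clusters, and the others stood lower.

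The same order held at 8 and above in the other comparisons. With both siRNAs the symbol-free stretches had 20.6% called, the symbol-less clusters among symbols 6.57% and single-symbol clusters 23.4%. With siH19-1 the shares were 11.1%, 3.41% and 12.4%, and between siH19-2 and siH19-1 they were 32.1%, 14.8% and 32.7%. Over all signals, symbol-free stretches had 634 calls with both siRNAs (11.8%), 333 with siH19-1 (6.22%), 1108 with siH19-2 (20.7%) and 963 between the siRNAs (18.0%). Symbol-less clusters among symbols had 300 (4.91%), 137 (2.24%), 667 (10.9%) and 576 (9.43%).

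**Figure D2:**
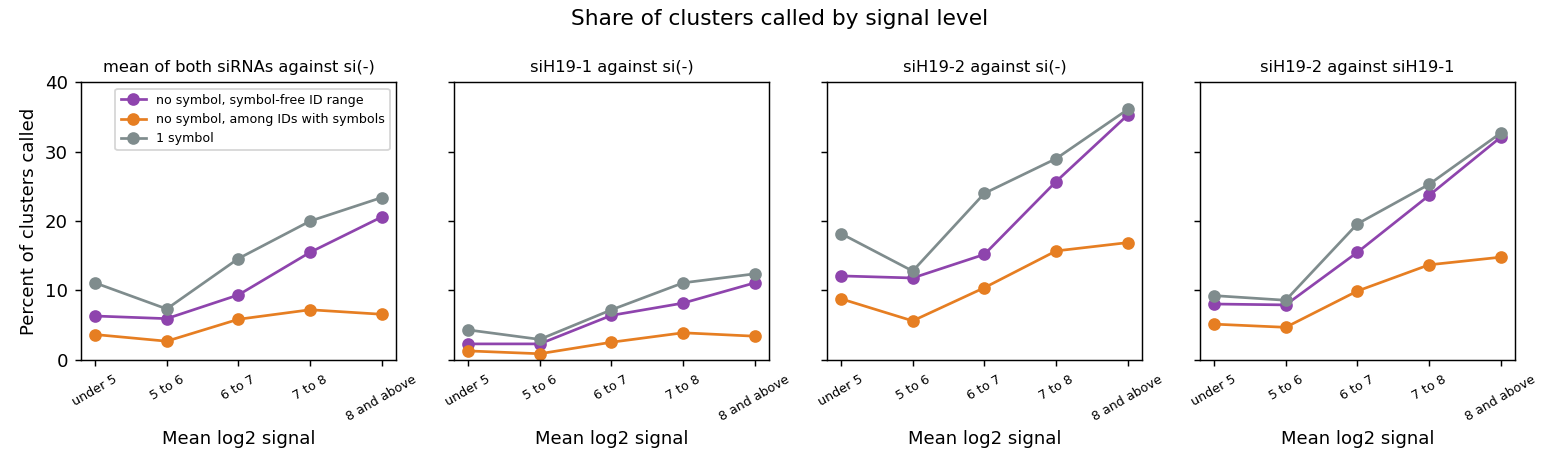
Percent of clusters called by limma (adjusted p under 0.05) in 5 bins of mean log2 signal, one panel for each comparison, for symbol-less clusters in symbol-free stretches, symbol-less clusters among clusters with symbols, and single-symbol clusters. With siH19-2 the topmost bin holds 35.3%, 16.9% and 36.1% called.

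Symbol-less clusters were shifted upward in the siH19-2 arrays relative to single-symbol clusters of the same array, a difference that a constant added to a whole array cannot alter. The median over symbol-less clusters minus that over single-symbol clusters was -0.835 and -0.90 in the siH19-1 arrays, -0.675 and -0.735 in the siH19-2 arrays and -0.90 and -0.91 in the si(-) arrays. Both siH19-2 arrays lay above the other 4, and the siH19-1 arrays spanned from beside si(-) to above it. The median of fold changes over symbol-less clusters exceeded that over single-symbol clusters by 0.145 with siH19-2, 0.03 with siH19-1 and 0.092 with both.

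Among the calls, 63.2% of the symbol-less clusters were higher with siH19-2, against 39.1% of the single-symbol clusters. With siH19-1 the shares were 42.7% and 42.4%, with both siRNAs 53.1% and 35.8%, and between siH19-2 and siH19-1 68.3% and 44.2%. The split of symbol-less calls depended on how arrays were scaled. With siH19-2 the share higher was 54.2% after centring arrays on their median, 51.1% after scaling to the rows of ERCC probes, which read external control RNAs, and 74.0% after scaling to all control rows. With both siRNAs it was 43.1%, 38.5% and 53.0% in this order, with siH19-1 36.6%, 29.1% and 31.5%, and between siH19-2 and siH19-1 64.2%, 69.5% and 84.1%. Scaling to the ERCC rows also narrowed the gap between the classes in the share called, to 6.55% and 8.64% with siH19-2, 2.65% and 2.72% with siH19-1, 4.10% and 5.49% with both siRNAs, and 6.16% and 6.24% between siH19-2 and siH19-1, for symbol-less and single-symbol clusters.

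The upward part was larger among clusters with symbols than in symbol-free stretches. With siH19-2, 482 of 667 calls (72.3%) among clusters with symbols were higher, and 639 of 1108 (57.7%) in symbol-free stretches. Their median log2 fold changes were 0.135 and 0.07. Noncoding single-symbol classes were also mostly higher with siH19-2, in 40 of 52 called long noncoding RNAs, 21 of 26 microRNA genes, 28 of 43 transcribed pseudogenes and 9 of 10 small nucleolar RNAs. The other pseudogenes, the largest of these classes, were nearly balanced with 19 of 34 higher (55.9%), while 1067 of 2870 called protein-coding clusters (37.2%) were higher. The share called was 14.6% of long noncoding RNAs, 8.20% of microRNA genes, 14.2% of transcribed pseudogenes, 6.97% of other pseudogenes, 7.30% of small nucleolar RNAs and 29.4% of protein-coding clusters. The symbol-less share of 15.4% lay nearer to long noncoding RNAs than to protein-coding clusters, but signals were not matched. Median signals were 5.73 for long noncoding RNAs, 6.36 for symbol-less and 7.33 for protein-coding clusters, and the share called varied with signal. The 15.4% also joins 20.7% in symbol-free stretches and 10.9% among clusters with symbols.

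**Figure D3:**
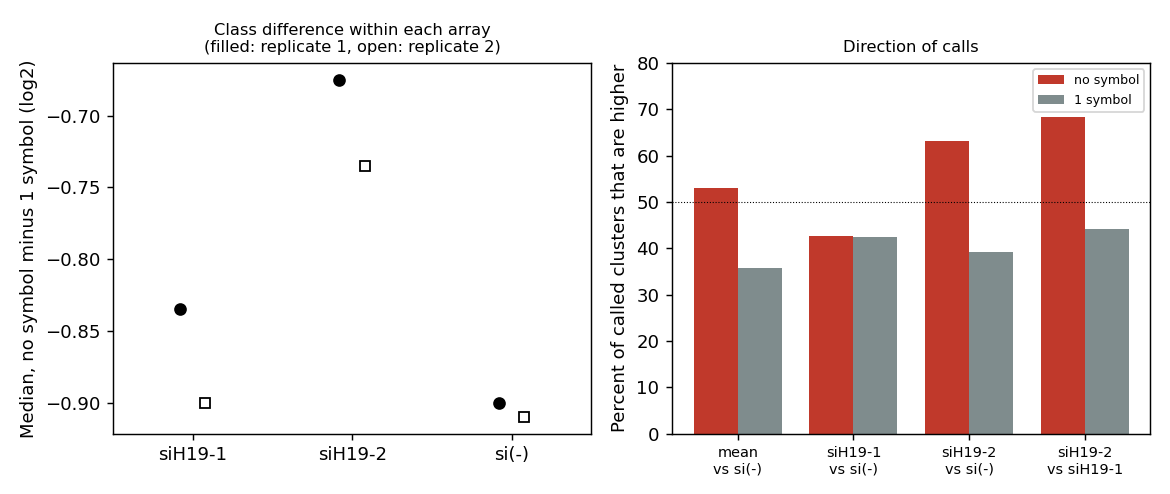
Left, each point is 1 array and gives the median log2 signal of symbol-less clusters minus that of single-symbol clusters, by siRNA. The siH19-2 arrays stand highest at -0.675 and -0.735. Right, bars give the percent of called clusters that are higher in each comparison, with a dotted line at 50%; with siH19-2 it is 63.2% for symbol-less and 39.1% for single-symbol clusters.

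The pattern was spread over the chromosomes. On each of 24 chromosomes, 1 to 22, X and Y, a smaller share of symbol-less than of single-symbol clusters was called in each of the 4 comparisons. With siH19-1 the shares on chromosome 21 were all but equal, at 3.76% and 3.77%, and chromosome Y had only 15 single-symbol clusters. The median log2 fold change of symbol-less clusters was the higher one on 24 of 24 chromosomes with both siRNAs, with siH19-2 and between the siRNAs, and on 22 with siH19-1. With siH19-2 it was above 0 on all 24 for symbol-less clusters and on 3 for single-symbol clusters, as deposited.

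With siH19-2 the share of symbol-less clusters called ranged over 11.2% on chromosome 22 to 22.0% on chromosome 17. Single-symbol shares ranged over 17.0% on chromosome 21 to 29.8% on chromosome 6. On chromosome 17, 117 of 533 symbol-less clusters were called, 62 higher and 55 lower, and on chromosome 13, 51 of 242 (21.1%), 34 higher and 17 lower. On chromosome 16, 81 of 396 (20.5%) were called, 58 higher and 23 lower. Chromosome 1, with the most symbol-less clusters, had 167 of 1146 called (14.6%), 117 higher and 50 lower. On chromosomes 17, 13, 16 and 1 the single-symbol shares were 29.1%, 26.4%, 26.2% and 26.2%, with more lower than higher on each. More symbol-less clusters were called higher than lower on 21 chromosomes, against 1 for single-symbol clusters. The symbol-less exceptions were chromosomes 19, with 20 higher and 34 lower, 22, with 10 and 20, and 21, with 8 and 8. Single-symbol clusters were mostly lower there too, with 55 higher and 98 lower on 19, 7 and 47 on 22, and 7 and 11 on 21. Medians of symbol-less clusters ranged over 0.015 on chromosome 21 to 0.15 on chromosome 6.

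With both siRNAs the symbol-less share called ranged over 4.44% on chromosome Y, where 2 of 45 were called, to 11.2% on chromosome 13, where 27 of 242 were. Single-symbol shares ranged over 11.7% on chromosome 22 to 21.1% on chromosome 4. Symbol-less calls on chromosome 15 were 26 higher and 7 lower, and on chromosome 19 they were 4 higher and 18 lower. Single-symbol calls were 17 higher and 41 lower on chromosome 15, and 30 and 71 on chromosome 19. With siH19-1 the symbol-less range was 2.22% on chromosome Y to 5.86% on chromosome 3. The single-symbol range was 3.77% on chromosome 21 to 14.7% on chromosome 10. Between siH19-2 and siH19-1 the ranges were 6.67% on chromosome Y to 17.4% on chromosome 13, and 13.3% on Y to 26.2% on 18. The spread of these shares over samples has no test here, since all chromosomes come from the same 6 arrays.

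**Figure D4:**
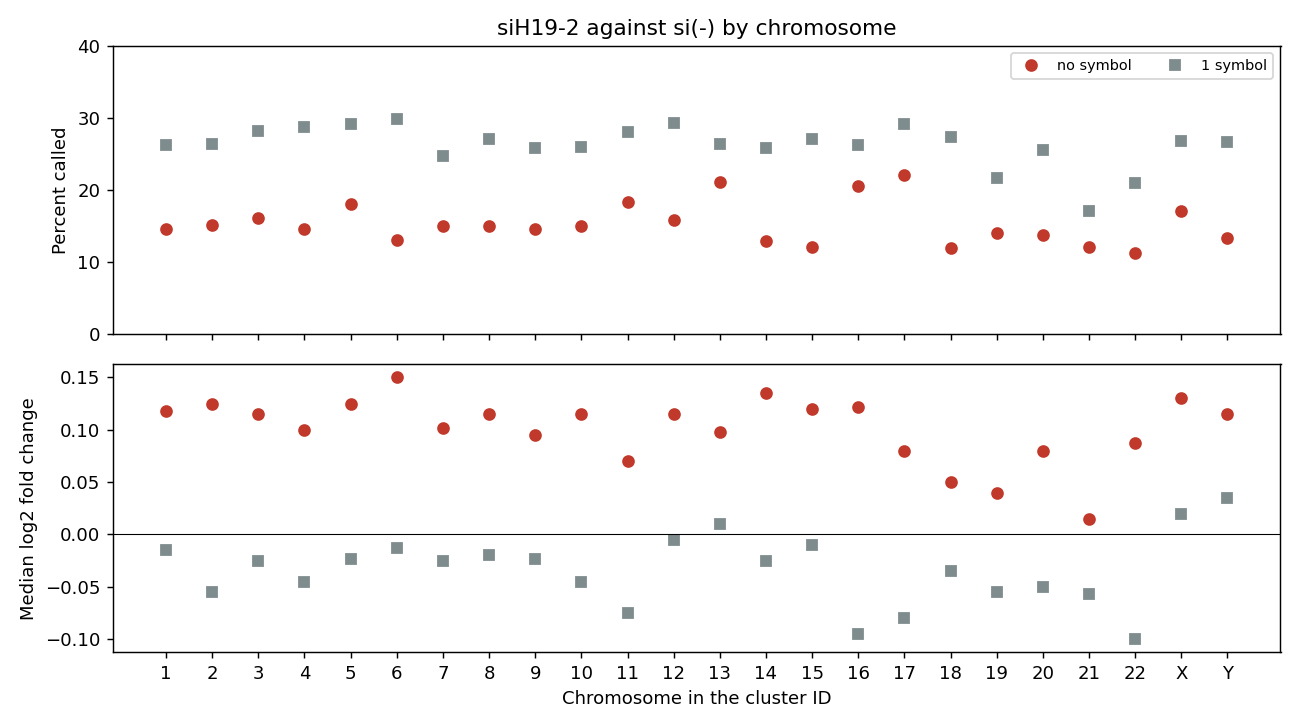
Percent of clusters called (top) and median log2 fold change (bottom) with siH19-2 against si(-), for symbol-less and single-symbol clusters of each chromosome in the ID. The symbol-less points lie below the single-symbol points in the top panel and above them in the bottom panel on 24 of 24 chromosomes.

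Fold changes of clusters with adjoining ID numbers were weakly correlated, and those of clusters further apart hardly at all. For a symbol-less cluster and the next one, with both siRNAs, Pearson's r of the log2 fold changes was 0.26 at a distance of 1 number in symbol-free stretches (1960 pairs, Spearman's rho 0.22) and 0.23 among clusters with symbols (1130 pairs, rho 0.17). At a distance of 2 it was 0.06 in both. For a symbol-less cluster and its nearest tested single-symbol cluster r was 0.15 at a distance of 1 (2666 pairs, rho 0.13) and 0.01 at 2 (1156 pairs). With siH19-2 the values at a distance of 1 were 0.26, 0.27 and 0.13. These correlations are across clusters measured on the same 6 arrays, and may include clusters that share probes. In symbol-free stretches it was not checked that adjoining numbers stand for adjoining places.

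The largest changes with both siRNAs, by log2 fold change, were 3.22 and -3.17 among symbol-less clusters and 2.67 and -3.28 among single-symbol clusters. The most extreme called changes without overlap gave 19 clusters to describe, 12 in symbol-free stretches and 7 among clusters with symbols. In the 12 chosen for the mean of both siRNAs, 10 lay in symbol-free stretches.

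TC18000741, on chromosome 18, had log2 signals of 10.73 and 10.47 with siH19-1, 11.14 and 10.63 with siH19-2 and 7.74 and 7.30 with si(-). All 4 siH19 arrays lay above both si(-) arrays, and it rose by 3.22 ± 0.20 (limma log2 fold change and SE, adjusted p = 0.00498). The nearest cluster with a symbol was 148 numbers away, so no named neighbour described its place. TC03003048, on chromosome 3, had 12.65 and 12.82 with siH19-1, 12.24 and 12.32 with siH19-2 and 9.09 and 9.59 with si(-). It rose with both siRNAs, by 3.40 with siH19-1 and 2.94 with siH19-2, which differed by -0.46 (adjusted p = 0.153).

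TC12002734 rose with both siRNAs, and more with siH19-2. Its signals were 8.39 and 8.44 with siH19-1, 9.76 and 9.47 with siH19-2 and 5.74 and 6.07 with si(-), and siH19-2 exceeded siH19-1 by 1.20 ± 0.16 (adjusted p = 0.00882). TC01004801 had the opposite order. It stood at 12.71 and 12.59 with siH19-1, 10.88 and 10.53 with siH19-2 and 8.82 and 9.04 with si(-), and siH19-2 was lower than siH19-1 by a log2 change of -1.95 (adjusted p = 0.00414). In both clusters the 3 groups did not overlap.

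TC05003028 had 7.28 and 7.36 with siH19-1, 8.06 and 7.65 with siH19-2 and 5.20 and 5.31 with si(-), close to the filter in the controls. TC17002638 had 12.03 and 12.12 with siH19-1, 12.04 and 11.92 with siH19-2 and 10.13 and 9.50 with si(-). They rose by 2.33 and 2.21 with both siRNAs (adjusted p = 0.00498 and 0.00545), and neither passed the test between the siRNAs (adjusted p = 0.0659 and 0.799).

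The steepest falls with both siRNAs were a pair of clusters beside U3 small nucleolar RNA genes on chromosome 17. U3 RNA takes part in the early cleavage of the ribosomal RNA precursor. TC17000231, 1 number from SNORD3A, had 10.27 and 11.16 with siH19-1, 10.32 and 11.05 with siH19-2 and 13.82 and 13.92 with si(-). TC17001232, 1 number from SNORD3B-2, had 10.33 and 11.17, 10.33 and 11.03, and 13.86 and 13.78 in the same order. They fell by 3.17 and 3.10 on the log2 scale (adjusted p = 0.00674 and 0.00644).

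These 2 clusters differed from each other by at most 0.14 on any array and may read the same RNA, so they are not 2 separate observations. In both, replicate 1 was the lower with either siRNA. The named neighbours did not pass the test: SNORD3A stood at 18.27 and 18.15 with siH19-1, 17.79 and 18.05 with siH19-2 and 18.39 and 18.12 with si(-) (adjusted p = 0.391 for both siRNAs), near the highest signals of the table. SNORD3B-2 had an adjusted p of 0.291.

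TC06002615 had 10.96 and 10.99 with siH19-1, 11.42 and 11.44 with siH19-2 and 14.49 and 13.83 with si(-), and fell by 2.96 (adjusted p = 0.00498). TC08002397 had 5.75 and 6.20 with siH19-1, 5.27 and 5.78 with siH19-2 and 8.63 and 8.24 with si(-), and fell by 2.69 (adjusted p = 0.00539). In both, the siH19 arrays lay below the si(-) arrays and the siRNAs did not pass the test against each other (adjusted p = 0.21 and 0.263).

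TC22001130 had the narrowest spread of the 12. Its signals were 7.67 and 7.67 with siH19-1, 7.12 and 7.0 with siH19-2 and 10.12 and 9.94 with si(-), a fall of 2.67 ± 0.10 (SE, adjusted p = 0.00327). siH19-2 was lower than siH19-1 by a log2 change of -0.61 (adjusted p = 0.0196). TC05002512 had 9.98 and 10.72 with siH19-1, 10.76 and 11.59 with siH19-2 and 13.13 and 13.37 with si(-). It fell by 2.49 (adjusted p = 0.00985), and did not pass without si(-) replicate 1 (adjusted p = 0.0545).

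**Figure D5:**
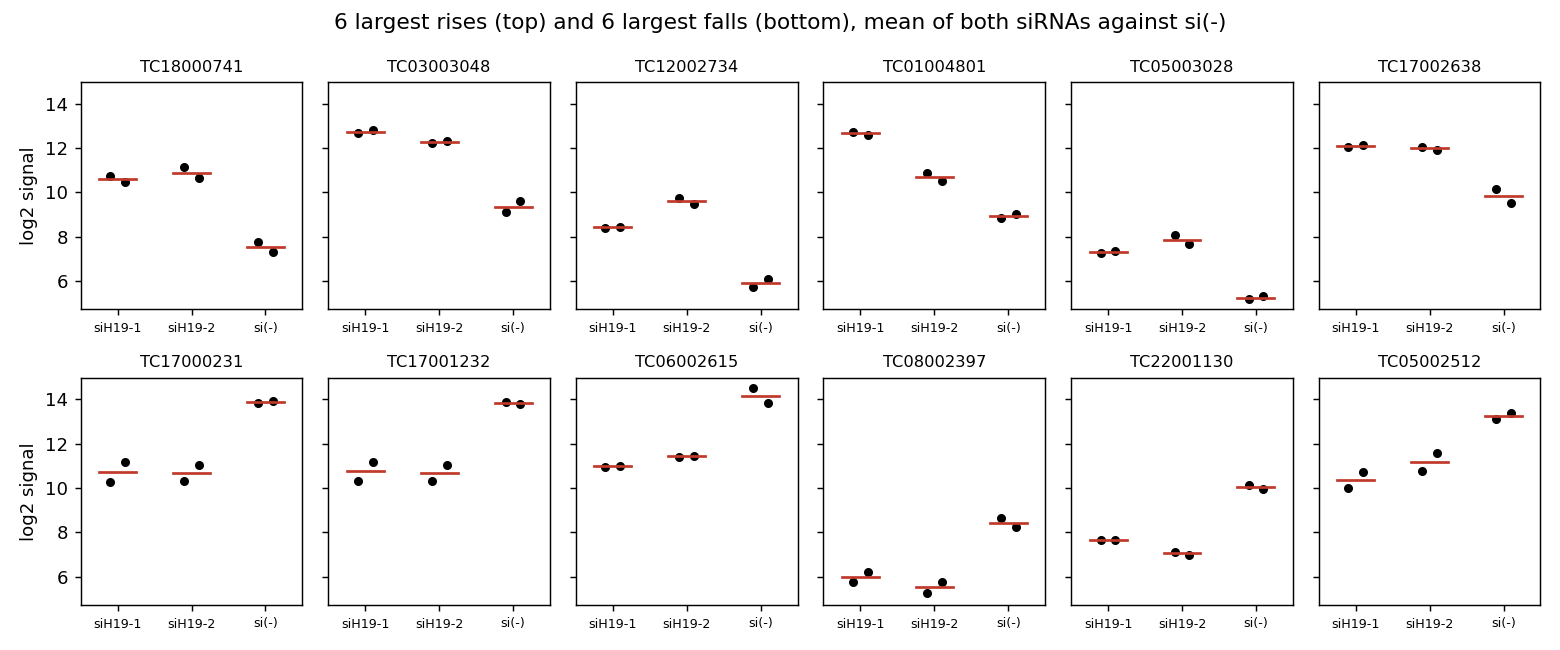
Log2 signal of the 12 symbol-less clusters with the largest rises (top) and falls (bottom) with both siRNAs against si(-). Each point is 1 array and each line the mean of 2 arrays; all 4 siH19 points lie on 1 side of both si(-) points in every panel, as the choice of clusters required.

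The remaining 7 clusters were chosen for siH19-2 against si(-) or for the difference between the siRNAs. TC13001298 had 9.19 and 8.80 with siH19-1, 11.58 and 10.88 with siH19-2 and 8.08 and 8.08 with si(-). It rose by 3.15 with siH19-2 (adjusted p = 0.00306), differed by 0.91 with siH19-1 (adjusted p = 0.107) and was higher with siH19-2 than with siH19-1 by 2.23 (adjusted p = 0.00671). Only siH19-2 thus passed against si(-), and the difference between the siRNAs passed too.

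TC09001042 fell with siH19-2 by 3.64, the largest fall of any symbol-less cluster in that comparison. Its signals were 10.79 and 10.64 with siH19-1, 6.95 and 7.62 with siH19-2 and 11.10 and 10.75 with si(-), so the siH19-2 arrays stood apart from the other 4. It lay 2 numbers from DCTN3, a dynactin subunit, which itself did not pass with siH19-2 (adjusted p = 0.722). TC17000665, 1 number from EME1, a partner of the MUS81 nuclease, had 11.68 and 11.36 with siH19-1, 7.68 and 8.13 with siH19-2 and 11.05 and 10.57 with si(-). It was lower with siH19-2 than with siH19-1 by a log2 change of -3.62 ± 0.24 (adjusted p = 0.00356), while EME1 did not pass (adjusted p = 0.227).

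TC01005092, in a symbol-free stretch of chromosome 1, had 10.10 and 9.99 with siH19-1, 7.30 and 6.94 with siH19-2 and 9.93 and 9.92 with si(-). The siH19-1 and si(-) arrays lay within 0.12 of each other in mean, and siH19-2 lay below both. TC17001820 had 7.01 and 7.03 with siH19-1, 9.33 and 10.32 with siH19-2 and 7.31 and 7.52 with si(-), and was higher with siH19-2 than with siH19-1 by 2.81 (adjusted p = 0.00642).

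TC04001438 was high with siH19-2 and low with siH19-1. It had 10.74 and 11.41 with siH19-1, 13.42 and 14.21 with siH19-2 and 12.26 and 12.45 with si(-), a difference between the siRNAs of 2.74 (adjusted p = 0.00711). Against si(-) the changes were -1.28 with siH19-1 (adjusted p = 0.0855) and 1.46 with siH19-2 (adjusted p = 0.0307). The cluster 1 number away carried the symbol of the microRNA gene MIR548AC and did not pass between the siRNAs (adjusted p = 0.464). The place of that gene was not checked singly against the ID, so the symbol may not describe the place of TC04001438.

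TC04000276, 1 number from NIPAL1, a gene of a magnesium transporter family, had the least certain values of the 19. Its signals were 6.57 and 4.59 with siH19-1, 9.19 and 7.94 with siH19-2 and 6.89 and 6.80 with si(-). It passed against si(-) with neither siH19-1 (-1.26, adjusted p = 0.362) nor siH19-2 (1.72, adjusted p = 0.141). siH19-2 exceeded siH19-1 by 2.98 ± 0.70 (adjusted p = 0.0374), and the replicates of a siRNA differed by more than those of any other cluster named here. Leaving out any 1 of 5 arrays ended its call: the adjusted p was 0.102 without siH19-1 replicate 2, 0.171 and 0.0717 without siH19-2 replicate 1 and 2, and 0.0603 and 0.0604 without si(-) replicate 1 and 2.

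The 12 mitochondrial symbol-less clusters had a median signal of 17.65 on the log2 scale. Only TC0M000019 was called in any comparison, with 13.35 and 13.39 with siH19-1, 13.80 and 14.22 with siH19-2 and 12.62 and 13.00 with si(-). It was higher with siH19-2 by 1.20 (adjusted p = 0.0127), and differed by 0.56 with siH19-1 (adjusted p = 0.171). The 4 clusters of highest signal lay between 19.80 and 19.91 on every array, near the highest signals of the table. Of the 52 haplotype clusters, 3 (5.77%, all lower) were called with siH19-1, 2 (3.85%, both higher) with siH19-2 and 11 (21.2%, all higher) between siH19-2 and siH19-1. Over all tested clusters the shares were 6.22%, 21.0% and 18.2%, and over the 265 single-symbol haplotype clusters 6.42%, 20.8% and 25.7%.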

How the data were processed

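Log2 signals of 6 HCT116 arrays were deposited by the authors, who used Affymetrix Expression Console and RMA per the submitters' processing notes; tool versions are not given in the sources used here, nor is the genome build. RMA includes background correction, quantile normalization and a summary over the probes of each row, so that array totals cannot be compared. Values have 2 decimals. The median over all transcript clusters was 4.10 to 4.20 per array. Of 70523 rows, 2995 are no transcript clusters and were used only for scaling alternatives.

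The 24721 clusters that reached 5 in 2 or more arrays were fitted together in limma 3.58.1 (R 4.3.3) with a coefficient per group and an intensity trend. The fit had 3 residual and 2.75 prior degrees of freedom. Two-sided p-values were adjusted (Benjamini-Hochberg) across all tested clusters of a comparison, and calls were made under 0.05. The script was tested on simulated arrays in which all clusters had the same spread. That does not check the comparison of the classes, whose spread differed. Only 2 arrays a group limit the precision. Symbols came from the platform annotation, gene classes and gene order from RefSeq (GRCh38.p14, 11425 of 11522 single-symbol clusters matched). Named clusters are the 6 largest rises and falls for both siRNAs and the 3 largest in each other comparison. All were taken from calls without overlap between arrays, each with its nearest tested single-symbol cluster. Members, lists and rules were chosen with earlier results of these data known. Alternatives covered the filter, the scaling, the variance model, identical rows, the pairing of replicate numbers and leaving out each array.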

Additional observations from a re-analysis of the deposited data

Results flagged for a closer look

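The 2 siRNAs gave different results in 1554 symbol-less clusters in the direct limma test of siH19-2 against siH19-1. The clusters named for this difference were higher with siH19-2 by 2.98 in TC04000276, 2.81 in TC17001820 and 2.74 in TC04001438. They were lower with siH19-2, by log2 changes of -3.62 in TC17000665, -3.43 in TC09001042 and -2.92 in TC01005092. TC04000276 lost its call without any 1 of 5 arrays and with no filter (adjusted p = 0.0769), and TC17001820 without siH19-1 replicate 2 (adjusted p = 0.0519). The 6 clusters were chosen for the size of this difference among calls. The largest rise of any symbol-less cluster between the siRNAs, 4.50 on chromosome 18, was not called.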

How the results depend on the processing

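Of 540 values of named clusters under alternatives 517 stayed past the threshold, 23 did not and 0 reversed. The siH19-1 calls of all 6 clusters named for siH19-1 were among these when either siH19-1 array was left out (adjusted p = 0.0666 to 0.0924), and those of TC17000231 when either si(-) array was (adjusted p = 0.0632 and 0.0504) and of TC17001232 without si(-) replicate 1 (adjusted p = 0.0637). Fewer symbol-less clusters than single-symbol clusters, in percent, were called under all 18 alternatives with both siRNAs, with siH19-2 and between the siRNAs, and under 16 with siH19-1, where the other 2 gave 0 calls of either kind; scaling to the ERCC rows left 6.16% against 6.24% between the siRNAs and 2.65% against 2.72% with siH19-1. The median fold change over symbol-less clusters exceeded the single-symbol one by 0.032 to 0.11 with both siRNAs, 0.04 to 0.19 with siH19-2 and 0.025 to 0.165 between the siRNAs. With siH19-1 it was above 0 under 17 of 18 alternatives and at most 0.06. Scaling each array by a constant, the variance model and the replicate block cannot change this difference. Nor can leaving out an array of a group that is not compared, so the 18 alternatives are not 18 separate checks of it. For the named clusters, alternatives that only changed which clusters were counted could not move the values. Those clusters were also chosen as the most extreme calls without overlap, which left little room for a reversal.

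Calls in the order both siRNAs, siH19-1, siH19-2 and siH19-2 against siH19-1 numbered 939, 473, 1779 and 1554 as reported. Without a filter, over 41126 symbol-less clusters, they numbered 454, 198, 1058 and 971. Scaling to the 155 ERCC rows, chosen after seeing the data, gave 473, 306, 756 and 711. It moved the median fold change over all tested clusters by -0.115 for siH19-1 and -0.10 for both siRNAs, and scaling to all control rows moved it by 0.15 between the siRNAs, where 2517 were called. The cause was not tested. Leaving out 1 array gave 248 to 577, 0 to 255, 452 to 1245 and 181 to 1713, with 1 array left in a group assumed to vary like the others. The replicate number as a block raised the siH19-1 count to 716 and gave 1347, 2446 and 2218 in the other comparisons; the deviations of same-numbered arrays correlated at 0.286, 0.203 and 0.198, and with 2 numbers and no label on shared batches this pairing was not taken as part of the design. With 2 arrays a group, a cluster that missed the threshold is not shown to be equal between groups.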
